A study of Bos taurus with 14 samples.

Results

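CD74, BoLA-DRA and B2M are 3 genes of antigen presentation, and their rows were taken by identifier from the 36075 gene rows of the deposited tables. CD74 is ENSBTAG00000015228, BoLA-DRA is ENSBTAG00000010645 and B2M is ENSBTAG00000012330. The symbols come from the list that defined the set, since neither the tables nor the reference table pairs these identifiers with symbols. All 3 rows had counts in some library, and 2 of them, CD74 and BoLA-DRA, had enough counts to be among the 12320 genes tested.

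The RNA came from milk fat globules of 14 purebred Holstein cows of 1 commercial farm under shared feeding and management. Of these, 7 were homozygous for the A1 form (A1A1) and 7 for the A2 form (A2A2) of β-casein, a major milk protein. The age and the stage of lactation of the cows are not in the labels used here. Each cow gave 1 mRNA library from frozen milk, named below by genotype and sample number, and the comparison asks how the globule transcriptome differs between the genotypes. Milk fat globules are fat droplets released by the secretory cell of the udder, which can enclose some of its cytoplasm. Milk also carries shed epithelial cells and leucocytes. Markers of these cells could not be looked up by symbol, so the labelled material was not checked against them.

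Professional antigen presenting cells, such as macrophages, dendritic cells and B cells, display fragments of engulfed proteins on MHC class II molecules to helper T cells. BoLA-DRA encodes the α chain of the cattle class II molecule DR. CD74, the invariant chain, occupies the groove of new class II molecules and guides them to the compartments where they are loaded. B2M encodes β2-microglobulin, the light chain of MHC class I, which nearly all nucleated cells carry. It is also the light chain of the neonatal Fc receptor and is itself secreted into milk. In most tissues CD74 and DRA are switched on together by the same class II transactivator, and epithelial cells can be brought to express them by interferon γ.

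Total counts per library ran from 16116849 to 22994197, and between 12545 and 17044 genes had at least 1 count. The descriptions of 4 libraries (A1A1 10 and 15, A2A2 5 and 13) end in _2. This suffix is not explained in the labels, and it was treated as a possible batch with 2 libraries of each genotype.

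CD74 was the most abundant of the 3. Its level, in FPKM (counts scaled by gene length and library depth), ran in A1A1 from 4.34 in A1A1 7 through a median of 57.5 to 232 in A1A1 9. In A2A2 it ran from 8.54 in A2A2 13 through a median of 23.8 to 162 in A2A2 11. A single cow of each genotype thus stood far above the rest, and the lowest and the highest of all 14 libraries were both A1A1. Placed among all genes of its own library by FPKM, CD74 held rank 263 in A1A1 9 and rank 5818 in A1A1 7. By mean FPKM over the 14 libraries it held rank 898 of the 21104 genes with a count.

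BoLA-DRA was lower than CD74 in 14 of 14 libraries. Its FPKM ran in A1A1 from 0.788 in A1A1 7 through a median of 15.6 to 87.6 in A1A1 9. In A2A2 it ran from 3.46 in A2A2 13 through a median of 7.38 to 40.3 in A2A2 11. The libraries at both ends of each genotype were those at the ends for CD74. BoLA-DRA held rank 2525 by mean FPKM over all libraries, rank 630 in A1A1 9 and rank 9350 in A1A1 7.

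The spread between cows was larger than counting error. CD74 differed 53.5-fold between A1A1 9 and A1A1 7, and BoLA-DRA 111-fold. A1A1 7 also had the lowest total count, 16116849, and the fewest genes with a count, 12545. The next lowest library for both genes was A2A2 13, at 8.54 FPKM of CD74 and 3.46 of BoLA-DRA. CD74 had 66 counts in A1A1 7, which is 4.10 parts-per-million (ppm) of its total counts (exact Clopper-Pearson 95% interval 3.17 to 5.21), and 3790 counts in A1A1 9, which is 205 ppm (198 to 212). BoLA-DRA had 20 counts in A1A1 7, or 1.24 ppm (0.758 to 1.92), and 2386 in A1A1 9, or 129 ppm (124 to 134). These intervals cover counting error only. On the scale of log2 CPM (counts-per-million with TMM factors, plus 0.5) the SD over 14 cows was 1.53 for CD74 and 1.53 for BoLA-DRA. Among the 2273 tested genes with a mean CPM within 2-fold of that of CD74, the median SD was 0.37 and 56 genes had a larger one. For BoLA-DRA 97 of 3497 such genes had a larger SD, and their median was 0.39.

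The row listed as B2M was nearly empty. It held 50 counts over all 14 libraries, against 15054 for CD74 and 7818 for BoLA-DRA, and 0 counts in 7 libraries. In A1A1 it had 24 counts in A1A1 9, 8 in A1A1 15, 5 in A1A1 10, 3 in A1A1 8 and 0 in A1A1 2, 3 and 7. In A2A2 it had 5 counts in A2A2 11, 3 in A2A2 6, 2 in A2A2 13 and 0 in A2A2 1, 4, 5 and 17. The highest level was thus in the cow that was also highest for both class II genes, at 2.58 FPKM or 1.30 ppm of total counts (exact 95% interval 0.831 to 1.93). In the 7 libraries at 0 the limit allowed by 3 counts lay between 0.135 and 0.186 ppm. By mean FPKM the row held rank 12337.

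A level this low goes against the name, because B2M is known as an abundant transcript of nearly all nucleated cells. The ratio of counts to FPKM gives each row's gene length up to a factor shared by a library. The BoLA-DRA row was 1.67 times and the B2M row 0.570 times as long as the CD74 row, and with TMM factors the CD74, BoLA-DRA and B2M rows came to about 959, 1600 and 547 bases. How reads that match several places were counted is not given in the sources used here. Whether this row collects the reads of B2M was not tested, and its values are given below as those of the row.

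**Figure D1:**
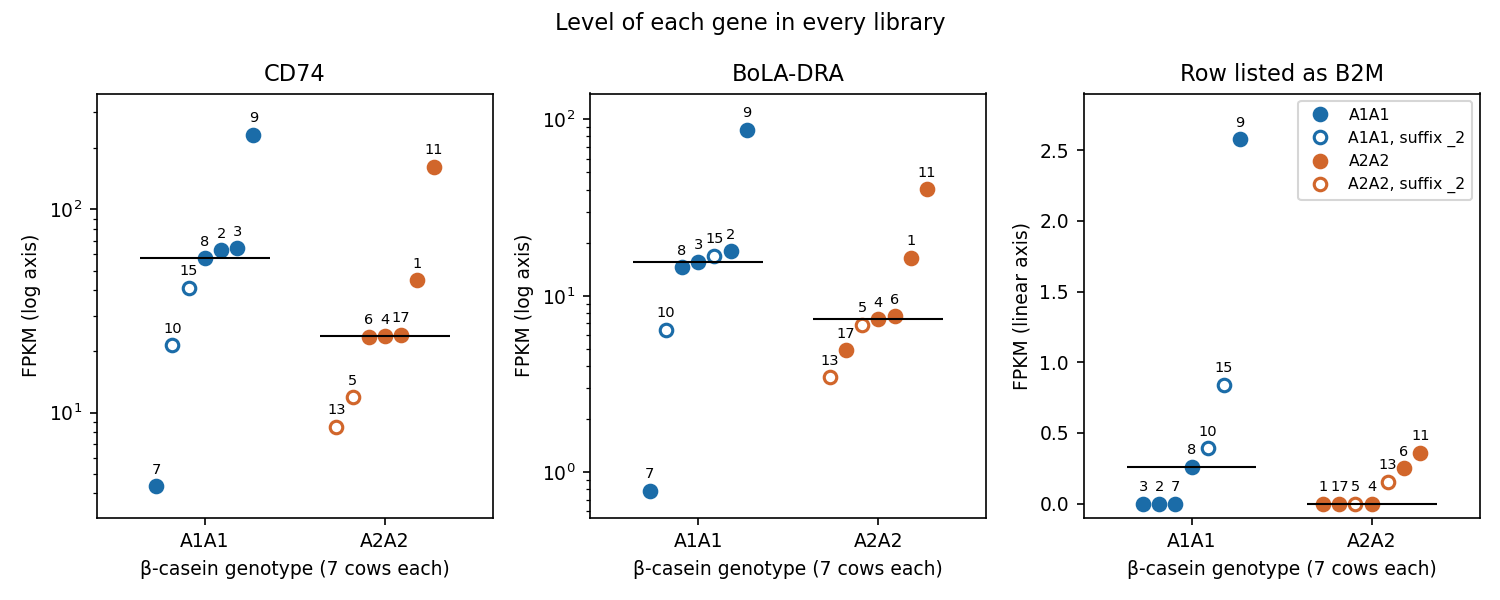
FPKM of CD74 and BoLA-DRA (log axes) and of the row listed as B2M (linear axis) in each of 14 libraries by β-casein genotype, with sample numbers beside the points, open points for libraries whose description ends in _2 and black lines at the median of 7 cows. A1A1 9 and A2A2 11 are the highest libraries of their genotypes in all 3 panels, and 7 libraries lie at 0 for B2M.

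Both class II genes lay above the B2M row in each of the 14 libraries, by ratios that the few B2M counts fix only loosely. In A1A1 9, with 24 B2M counts, the CD74 level per length was 90.1 times that of the B2M row (95% counting interval 60.4 to 141). It was 49.0 times in A1A1 15 (24.7 to 114), 54.4 times in A1A1 10 (23.2 to 168) and 448 times in A2A2 11 (192 to 1381). In A1A1 8, with 3 B2M counts, the ratio was 220 (74.96 to 1066). In A2A2 6, also with 3 counts, it was 93.7 (31.9 to 456), and in A2A2 13, with 2 counts, 55.3 (15.1 to 460). Against a floor of 3 counts per library, CD74 was at least 12.5-fold higher in A1A1 7, and the bound reached at least 248-fold in A1A1 2. The ratio of BoLA-DRA to the B2M row lay between 16.3 in A1A1 10 (6.88 to 50.6) and 111 in A2A2 11 (47.7 to 344) in the 7 libraries with B2M counts. In those at 0, BoLA-DRA was at least 2.28-fold higher in A1A1 7 and at least 16.2-fold higher in A2A2 17, and the bound reached at least 70.3-fold in A1A1 2. Because a plain ratio has no value at 0 counts, the genotypes were compared on log2((FPKM + 1)/(FPKM + 1)). Outside A1A1 9 the B2M row had at most 0.840 FPKM, less than the 1 added. This quantity therefore mostly follows the class II gene and cannot measure a genotype difference in the ratio to B2M. The difference of A2A2 against A1A1 was -0.26 for CD74 to B2M (SE 0.70, 95% interval -1.74 to 1.31, exact permutation p = 0.714) and -0.098 for BoLA-DRA to B2M (SE 0.62, 95% interval -1.43 to 1.28, exact permutation p = 0.880). Neither was larger than the spread between cows, and the sign turned without A2A2 13 for both (0.016 and 0.11) and without A1A1 2, 3 or 9 or A2A2 17 for BoLA-DRA (up to 0.12).

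CD74 was lower in A2A2 than in A1A1 by its means, but not beyond the spread between cows. It averaged 69.1 ± 75.3 FPKM in A1A1 and 42.7 ± 53.8 in A2A2 (mean ± SD, n = 7 each), and 6 of 7 A2A2 cows lay below the A1A1 median. The log2 fold change of A2A2 against A1A1 was -0.71 with an adjusted p of 0.856 over all genes in edgeR's quasi-likelihood test. The difference in mean log2 CPM was -0.64 (SE 0.83), and its 95% interval by exact permutation ran from -2.37 to 1.23 (two-sided exact p = 0.463, 3432 splits). The genotypes overlapped over the whole A2A2 range.

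BoLA-DRA had means of 22.8 ± 29.2 FPKM in A1A1 and 12.4 ± 12.95 in A2A2 (mean ± SD over 7 cows each), and 5 of 7 A2A2 cows lay below the A1A1 median. Its log2 fold change was -0.89 (edgeR adjusted p = 0.856). The difference in mean log2 CPM was -0.45 (SE 0.84, 95% interval by exact permutation -2.22 to 1.40, exact p = 0.626). As for CD74, the whole A2A2 range fell inside that of A1A1. These intervals include more than a 2-fold change in either direction.

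Both edgeR log2 fold changes lost their direction without A1A1 9. Without this library the log2 fold change was 0.015 for CD74 and 0.037 for BoLA-DRA. Without A2A2 11, the highest A2A2 library, it was -1.62 and -1.58, with edgeR adjusted p of 0.447 and 0.455. Without A1A1 7 and 9 together, an alternative chosen after seeing the data, it was -0.22 and -0.21. Neither gene passed in any of these fits. Across all genes edgeR called 0 of 12320 at an adjusted p of 0.05, or 0%, and 411 or 3.34% had an unadjusted p under 0.05. The unadjusted p was 0.356 for CD74 and 0.254 for BoLA-DRA. DESeq2 called 5 genes, limma voom 0 and limma on log2(FPKM + 1) 1, and none of these was CD74 or BoLA-DRA. In bulk libraries, fewer cells of a type and less RNA per cell cannot be told apart.

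For the B2M row no genotype difference was detectable at this depth. Its mean was 0.582 ± 0.931 FPKM in A1A1 and 0.1096 ± 0.149 in A2A2 (mean ± SD over 7 cows each). It had counts in 4 of 7 A1A1 and 3 of 7 A2A2 libraries (Fisher's exact p = 1, two-sided). As it did not pass the filter on low counts, its log2 CPM was compared by an exact permutation test chosen after seeing the data. The difference was -0.39 (SE 0.28, 95% interval -0.97 to 0.15, exact p = 0.188), and -0.15 without A1A1 9 (exact p = 0.376). Outside A1A1 9 the CPM of the row was at most 0.464, less than the 0.5 added, so this interval does not bound the fold change. The log2 fold change was -2.29 in edgeR without a filter (adjusted p = 0.607) and -2.44 in DESeq2 (adjusted p = 0.991).

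CD74 and BoLA-DRA rose and fell together from cow to cow. Over 14 cows, Pearson's r of their log2 CPM was 0.97 (permutation p = 1e-05, the smallest that 100000 resamples can give; adjusted p = 3e-05 over the 3 pairs of genes). Spearman's rho was 0.89 (permutation p = 6e-05, adjusted p = 0.00018). Without A1A1 7 and 9, the cows farthest from the median of CD74, r was 0.94 (permutation p = 7e-05). Among A1A1 cows alone it was 0.99 (exact permutation p = 0.00238, n = 7), and among A2A2 cows 0.94 (exact permutation p = 0.00357, n = 7). In the 10 libraries without the suffix it was 0.99 (permutation p = 1e-05). The 4 libraries with the suffix are too few for a correlation. The relation thus did not rest on the extreme cows, on 1 genotype or on the suffix libraries.

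**Figure D2:**
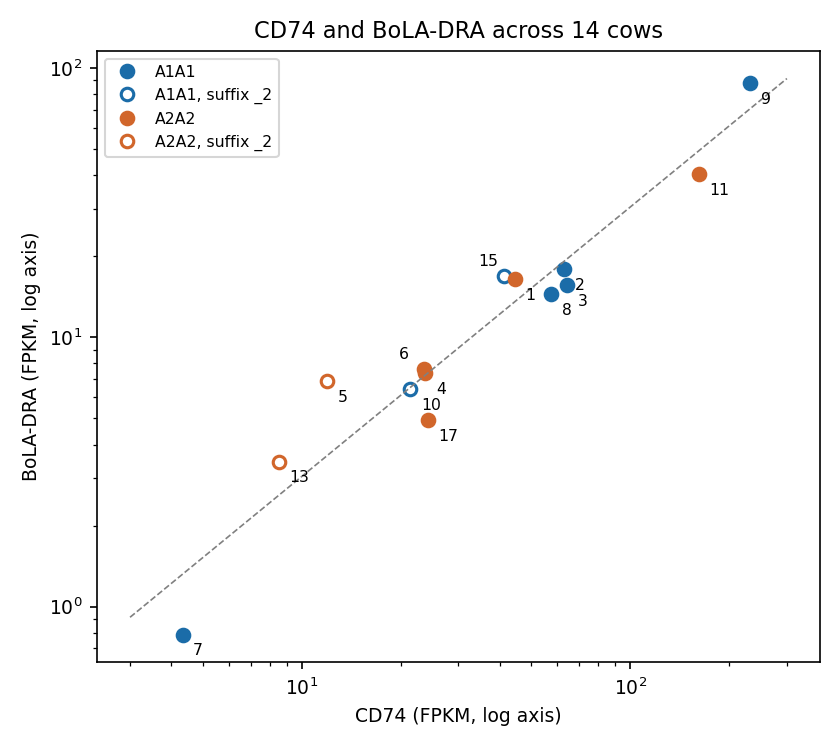
BoLA-DRA against CD74 in FPKM, both on log axes, 1 point per cow with its sample number, coloured by genotype and open where the description ends in _2; the dashed line marks the median ratio of 0.305. The points follow the line over a 53.5-fold range of CD74, with A2A2 5, A1A1 15 and A2A2 13 farthest above it and A1A1 7 and A2A2 17 farthest below it.

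The relations of the B2M row with the class II genes were not stable. Pearson's r was 0.57 with CD74 (permutation p = 0.0352, adjusted p = 0.0352) and 0.63 with BoLA-DRA (permutation p = 0.0235, adjusted p = 0.0352). Spearman's rho was 0.28 (permutation p = 0.323) and 0.40 (permutation p = 0.157). Without the 2 cows farthest from the median of the class II gene, r fell to 0.18 and 0.25 (permutation p = 0.575 and 0.426), and without A1A1 9 alone it was 0.27 and 0.33 (permutation p = 0.369 and 0.260). The relation with CD74 also missed the threshold without A2A2 5 (r = 0.55, permutation p = 0.0601). In the 10 libraries without the suffix r was 0.63 and 0.66 (permutation p = 0.0781 and 0.0698). These relations rest on A1A1 9, and 7 of the 14 points lie at 0 counts.

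The level of BoLA-DRA relative to CD74 varied far less than either gene. The ratio of their FPKM had a median of 0.305 and ran from 0.182 in A1A1 7 (95% counting interval 0.104 to 0.303) to 0.576 in A2A2 5 (0.482 to 0.689), a 3.17-fold range. The SD of its log2 was 0.44, against 1.56 for CD74 and 1.62 for BoLA-DRA in log2 FPKM. This smaller spread goes with the r of 0.97 given above and is not a separate result. Its mean was 0.293 ± 0.0792 in A1A1 and 0.348 ± 0.121 in A2A2 (mean ± SD over 7 cows each). The genotypes differed by 0.22 on the log2 scale (SE 0.24, 95% interval -0.28 to 0.74, exact permutation p = 0.366), which is within the spread between cows.

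The ratio had a higher mean in the 4 libraries whose description ends in _2 than in the other 10. This comparison was added after the values were seen. The values with the suffix were 0.299 in A1A1 10, 0.411 in A1A1 15, 0.405 in A2A2 13 and 0.576 in A2A2 5, and 3 of these 4 lay above the highest value without it, 0.377 in A1A1 9. A1A1 10 lay below A1A1 9 and A2A2 1, 4 and 6, which do not carry the suffix. The means were 0.423 ± 0.114 (SD, n = 4) and 0.279 ± 0.0655 (SD, n = 10), a log2 difference of 0.60 (exact permutation p = 0.0150, two-sided). This p is not adjusted, and between the same libraries 19.3% of 13323 genes had an unadjusted edgeR p under 0.05. Without A2A2 5 the difference was 0.43 (exact permutation p = 0.0664). Within A1A1 it was 0.43 (exact p = 0.238) and within A2A2 0.76 (exact p = 0.0952), where 2 libraries against 5 cannot give a p below 0.0476.

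**Figure D3:**
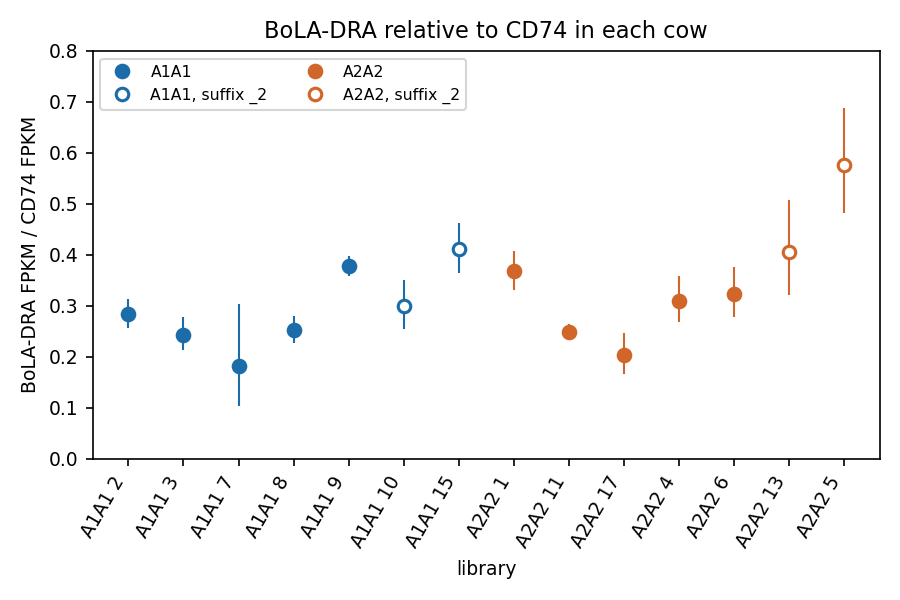
FPKM of BoLA-DRA divided by that of CD74 in each library, with 95% counting intervals as vertical lines, coloured by genotype and open where the description ends in _2. Values run from 0.182 to 0.576, and the open points of each genotype include its highest value.

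CD74 had a lower mean in the libraries with the suffix, but this did not pass the main test. Its mean was 20.8 ± 14.6 FPKM with the suffix (SD, n = 4) and 69.9 ± 71.7 without (SD, n = 10). The log2 fold change, with genotype in the model, was -1.96 (edgeR, unadjusted p = 0.0343, adjusted p = 0.218 over 13323 genes). edgeR called 182 of these genes, or 1.37%, and 19.3% had an unadjusted p under 0.05, so an unadjusted p of this size was common. In DESeq2 the adjusted p of CD74 was 0.0437. That fit, given the 21104 genes with a count, called 967 genes, and 3071 had an unadjusted p under 0.05, so a call was more common there than in edgeR. The difference in mean log2 CPM was smaller, at -1.32 (exact permutation p = 0.149, 1001 splits). The A2A2 libraries with the suffix were the 2 lowest of A2A2, at 8.54 and 11.9 FPKM, while the A1A1 libraries with it, at 21.4 and 41.1, lay above A1A1 7. BoLA-DRA had 8.41 ± 5.86 FPKM with the suffix and 21.3 ± 25.7 without (log2 fold change -1.45, edgeR adjusted p = 0.379). Without A1A1 9 this log2 fold change was -0.82, and the difference in mean log2 CPM over all libraries was -0.75 (exact permutation p = 0.447). The B2M row had 0.347 ± 0.366 and 0.345 ± 0.797 FPKM (exact permutation p = 0.814).

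Among abundant genes, BoLA-DRA was the gene most like CD74 in its pattern across cows. Likeness was Pearson's r of log2 CPM over the 14 libraries, taken for the 5880 other tested genes with a mean CPM of at least 10, and it is given as a description. BoLA-DRA held place 1 for CD74, and CD74 held place 2 for BoLA-DRA, with the r of 0.97 given above. The next genes for CD74 were ENSBTAG00000031718 (r = 0.96) and ENSBTAG00000000312 (r = 0.96). The other genes in the first 3 places for BoLA-DRA were ENSBTAG00000025762 (r = 0.97) and ENSBTAG00000011043 (r = 0.96). Each of these 4 genes had its highest CPM in A1A1 9, which their choice by r favours, since CD74 and BoLA-DRA were also highest there. An r of at least 0.9 was reached by 58 genes, or 0.986%, with CD74 and by 95, or 1.62%, with BoLA-DRA. More genes ran against the pair than with it, since r was below 0 for 58.5% with CD74 and for 59.1% with BoLA-DRA.

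**Figure D4:**
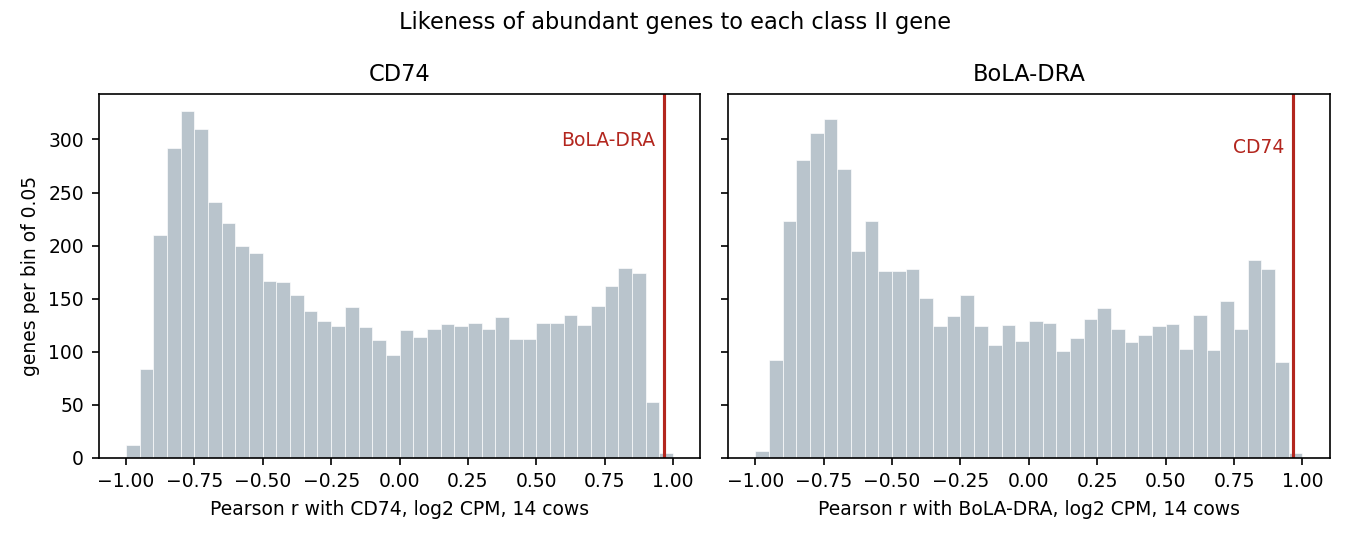
Number of genes by Pearson r of log2 CPM with CD74 (left) and with BoLA-DRA (right) over 14 cows, in bins of 0.05, for 5880 genes with a mean CPM of at least 10. The red line marks the other class II gene at r = 0.97, at the far right of a distribution whose median is -0.22 in each panel.

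The pair followed the main axis along which the libraries differed. The first principal component of all tested genes, computed without the members, held 46.1% of the variance. Its Pearson r was 0.92 with CD74 and 0.95 with BoLA-DRA (permutation p = 1e-05 each, adjusted p = 5e-05 over 10 relations with library measures). Spearman's rho was 0.85 (permutation p = 0.00026) and 0.93 (permutation p = 2e-05). Without A1A1 7 and 9, which lie at the ends of this axis, r was 0.84 and 0.90 (permutation p = 0.00066 and 6e-05), and with the suffix libraries set aside 0.94 and 0.96 (permutation p = 0.00012 and 5e-05). The share of all genes with an r this large to the component was not computed, so the relation is not shown to be particular to the pair. Of the 5880 abundant genes, 411 or 6.99% had an r of at least 0.8 with CD74 itself, and 459 or 7.81% with BoLA-DRA.

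The number of genes with a count also went with the pair, though not past an adjusted p of 0.05. Its r was 0.60 with CD74 and 0.62 with BoLA-DRA (permutation p = 0.0231 and 0.0178, adjusted p = 0.0578 each; rho 0.39 and 0.35, permutation p = 0.170 and 0.214). Without A1A1 7 and 8 it was 0.39 and 0.41 (permutation p = 0.205 and 0.184), and without the suffix libraries 0.74 and 0.71 (permutation p = 0.0165 and 0.0237). For total counts, TMM factors and the share of the 10 most abundant genes, the adjusted p of Pearson's r was 0.350 or more and that of Spearman's rho 0.309 or more for both genes. The part of these library measures in the levels of CD74 and BoLA-DRA was not tested.

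**Figure D5:**
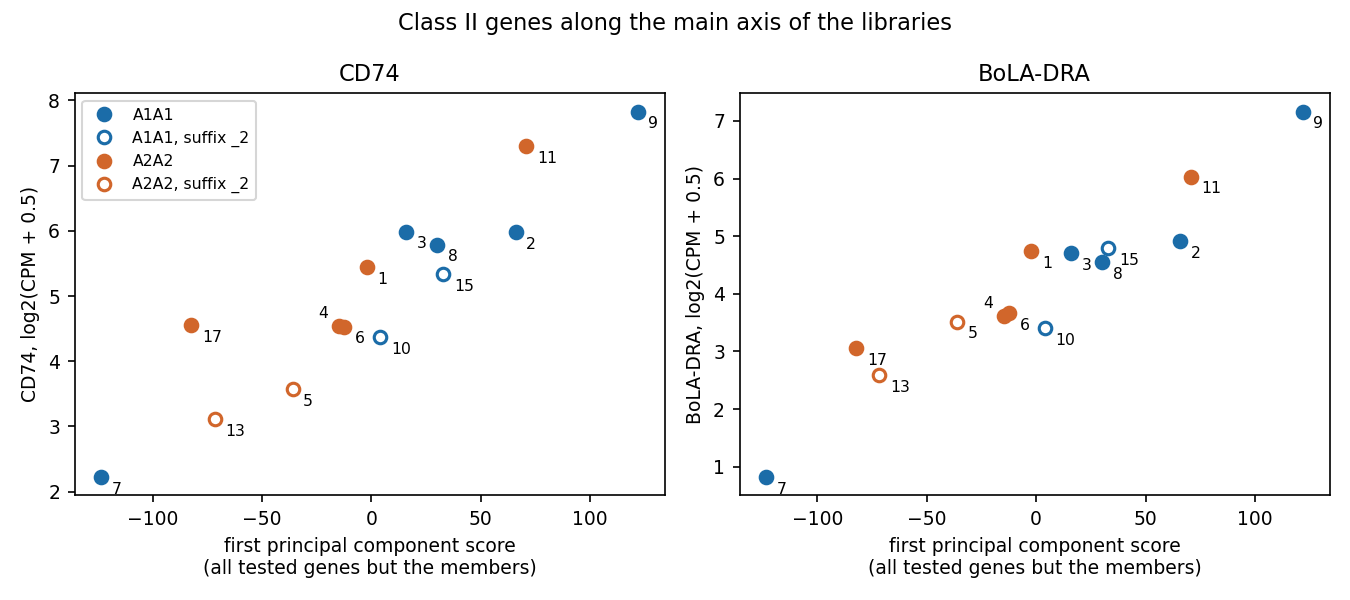
log2(CPM + 0.5) of CD74 (left) and BoLA-DRA (right) against the score of each library on the first principal component of the other tested genes, 1 point per cow with its sample number. A1A1 7 lies lowest and A1A1 9 highest on both axes of each panel, with the other 12 cows between them.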

How the data were processed

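Paired-end mRNA libraries of 14 cows were sequenced, per the labels' protocols, and genotype and sample number were read from the sample titles. A table of unnormalized counts and a table of FPKM were deposited by the authors, each with 36075 gene rows. Per the submitters' processing notes, edgeR 4.0.16, STAR, cutadapt 4.0 and FastQC 0.11.9 were used, with no roles stated. Which build, annotation, strand setting and counter were used is not stated in the labels. FPKM was used for levels and ratios, since it is per length, and counts for tests.

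The main test was edgeR's robust quasi-likelihood F test (version 4.0.16, R 4.3.3) on counts after filterByExpr with TMM factors (two-sided, Benjamini-Hochberg over all genes tested, threshold 0.05), and alternatives used DESeq2 1.42.0 and limma 3.58.1. log2 CPM uses a pseudocount of 0.5. Single values were compared by exact permutation over all splits, with 95% intervals by inversion, and correlations with 100000 resamples (NumPy 2.4.6, SciPy 1.17.1). Where a library has 0 counts, a limit of 3 counts is used. The edgeR test and the exact permutation test between groups were checked on simulated data. The rule for named genes took the 3 members and, for CD74 and BoLA-DRA, the genes of highest r among those with a mean CPM of at least 10. The members and lists were chosen with earlier results of these data known.

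0 identifiers matched a symbol in the reference table of ARS-UCD2.0. The 4 pathway lists and 8 cell type marker lists planned by symbol, and the promoter motifs, were therefore not run, and the row listed as B2M was tested by exact permutation because it did not pass filterByExpr. The ratios to B2M were planned as log2 ratios of FPKM and were tested with 1 added to each FPKM, because 7 libraries have 0 counts.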

Additional observations from a re-analysis of the deposited data

Results flagged for a closer look

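In 5 of 8 sets of 7 values searched for a cow far from the other 6 of its genotype (Dixon's test on FPKM and on the ratio of BoLA-DRA to CD74), the highest cow stood apart. Chance gives about 1 in 20 such sets for normally distributed values, and FPKM is skewed. The sets are not independent, since CD74 and BoLA-DRA varied together and the cow that stood apart was always A1A1 9 or A2A2 11. On log2 FPKM 0 of the 4 sets of CD74 and BoLA-DRA had such a cow.

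A1A1 9 had 232 FPKM of CD74, where the next A1A1 cow had 64.2. It had 87.6 FPKM of BoLA-DRA, where the next had 17.9, and 2.58 FPKM of the row listed as B2M, where the next had 0.840. A2A2 11 had 162 FPKM of CD74, where the next A2A2 cow had 44.7, and 40.3 FPKM of BoLA-DRA, where the next had 16.4.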

How the results depend on the processing

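No paired analysis was possible because each sample number occurs once, so the genotypes share none. The count of 0 genes called between the genotypes became 5 in DESeq2 and 1 by limma on log2(FPKM + 1), and leaving out 1 library gave 0 to 0. The log2 fold changes kept their direction in 26 of 27 alternatives for CD74 and in 26 of 27 for BoLA-DRA and passed in none. Leaving out 1 library gave -1.62 to 0.015 for CD74 and -1.58 to 0.037 for BoLA-DRA, both highest without A1A1 9. Scaling by library totals moved the median of all genes to 0.18, and CD74 was at -0.47 and BoLA-DRA at -0.67. For the B2M row, edgeR without a filter gave -2.29 (adjusted p = 0.607), a fitted value that depends on the prior count. DESeq2 gave -2.44 (adjusted p = 0.991). For this row, leaving out 1 library gave -0.48 to -0.15 by exact permutation on log2(CPM + 0.5), the latter without A1A1 9. The genotype difference in the ratio of BoLA-DRA to CD74 was 0.090 without A2A2 5 and 0.34 without A2A2 17.

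Between libraries with and without the suffix, the count of 182 genes was 51 with library totals, 967 in DESeq2, 111 without genotype in the model and 0 to 518 when leaving out 1 library, with 0 calls without A2A2 1, 4 or 13 or A1A1 3, 8, 10 or 15. CD74 was among the 967 genes that passed in DESeq2, at -1.95. The B2M row, at 0.11 by exact permutation, was at -0.28 in DESeq2 and at -0.070 to 0.29 when leaving out 1 library. The ratio of BoLA-DRA to CD74 no longer passed within A1A1 (0.43) or A2A2 (0.76), and leaving out 1 library gave 0.43 without A2A2 5 to 0.75.

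CD74 with BoLA-DRA passed in all 23 alternatives run. For CD74 with B2M, the relation failed by Spearman (0.28), without the 2 farthest libraries (0.18), in the 10 libraries without the suffix (0.63), centred on the genotype means (0.54), and within A1A1 (0.60) or A2A2 (0.49), and leaving out 1 library gave 0.27 to 0.62. For BoLA-DRA with B2M it failed by Spearman (0.40), without the 2 farthest libraries (0.25), in the 10 libraries (0.66) and within A1A1 (0.68) or A2A2 (0.48), and leaving out 1 library gave 0.33 to 0.68. The cause of these changes was not tested. On log2((FPKM + 1)/(FPKM + 1)), which mostly follows the class II gene, the genotype difference for CD74 to B2M ran from -0.68 without A1A1 7 to 0.016 without A2A2 13. That of BoLA-DRA to B2M ran from -0.51 without A1A1 7 to 0.12 without A1A1 9, with 0.016 in the 10 libraries without the suffix, and neither passed in any alternative. For the B2M row, the alternatives not named here or covered by leaving out 1 library, RLE factors, library totals and the unfiltered fits were not run.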
